A study of Mus musculus with 60 samples.

Results

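IL6-iHPCs carried to passage 10 were compared with the first culture of the same kind of cell at day 14, over all genes expressed in either. The name IL6-iHPC stands for hepatic progenitor cells that were induced from primary hepatocytes of wild-type C57BL/6 mice (C57BL/6J in the study's methods), 8 to 10 weeks old, by growth in the medium IL6-HCM. It contains 30 ng/ml IL6, 20 ng/ml EGF, 20 ng/ml HGF and 0.1 uM dexamethasone, so both sides of the comparison were grown with the same factors. The group D14 (P0) is hepatocytes after 14 days in this medium that had never been passaged. The groups mouse-1 (P10) and mouse-2 (P10) are lines from separate mice that had been passaged 10 times, every 5 to 7 days. Each group has 3 samples, so the comparison uses 9 samples of the 33 in the cell table and of the 60 in the series. A gene entered when its value was 1 FPKM (mapped fragments scaled by transcript length and by library size) or more in at least 3 of the 9 samples, which 11235 of 19355 gene symbols did. The 3 samples of a single group could meet this alone. A gene that entered through D14 alone, under 1 FPKM in every P10 sample, could be called only as lower at P10.

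In the study's legends, the 3 samples of each group are described as technical repeats. The p-values below therefore cover technical error, and whether the D14 samples come from 1 culture is not given. The 2 lines are the only labelled replication above that level, so genes are described as changed in both lines where each line passed the test on its own. The lines share the D14 samples, and their values are given side by side.

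Hepatocytes carry out most of the metabolic work of the liver. They secrete plasma proteins, oxidise and conjugate foreign compounds, make bile acids and urea, and handle sugars and lipids. After injury, or in culture with growth factors, they can take on features of progenitor and bile duct cells and divide. IL6 signals through the receptor chain gp130 and the transcription factor STAT3, and in hepatocytes it is the main inducer of the acute-phase plasma proteins.

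Depth was between 49.5 M and 72.4 M reads on genes per sample, as recovered from the steps in the values and known up to a factor that all samples share. The P10 samples had 10298 to 10482 genes at 1 FPKM or more and the D14 samples 10949 to 11014. The 10 most abundant genes took 16.0% to 18% of the summed FPKM at P10 and 13.6% to 14.4% at D14. Replicate 1 of the mouse-1 line stood apart from the other 2 repeats of that line, with a chi-square per gene of 77.8 and 55.9 against 16.9 between the other two. All 6 P10 samples lacked reads on the Y-linked genes that the D14 samples expressed, as described at the end.

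The hepatocyte identity of both sides was checked with a few fixed markers, while the wider lists described below split. Of 22 hepatocyte transcription factors 7 were higher and 4 lower at P10, and of 32 secreted plasma proteins 10 were higher and 8 lower. Hnf4a, the nuclear receptor that maintains hepatocyte identity, was at 172 to 226 FPKM at P10 and 193 to 204 FPKM at D14, and these ranges overlapped. Albumin (Alb) was at 6397, 7267 and 6842 FPKM in mouse-1, 7789.9, 8129.9 and 8373 FPKM in mouse-2 and 3828, 4141 and 3244 FPKM at D14. Every P10 sample was above every D14 sample, and the pooled log2 difference of 1.00 ± 0.09 fell just short of 2-fold (limma with Benjamini-Hochberg adjustment, adjusted p = 1.92e-06). Alb passed in mouse-2 (1.12 ± 0.10), was 0.36 pooled after quantile normalization and 1.28 with voom, and passed when replicate 1 of mouse-1 (1.02), replicate 1 of mouse-2 (1.01), replicate 1 of D14 (1.02) or replicate 2 of D14 (1.08) was left out. Sox9, a transcription factor of progenitor and bile duct cells, was at 39.7 to 43.6 FPKM in mouse-1, 23.4 to 26.9 FPKM in mouse-2 and 59.01 to 62.6 FPKM at D14. Cyp1a2, an enzyme of the mature liver, stayed under 4 FPKM in all 9 samples.

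Passaged cells differed from the D14 culture in 1654 genes (14.7%), of which 568 were higher at P10 and 1086 were lower. This is 5.06% and 9.67% of the genes tested, and these shares are the background for the gene groups below. A gene was called at an adjusted p under 0.05 and at least 2-fold, on log2(FPKM + 1), a scale on which the changes of low genes are understated. All differences below are given on this scale with the standard error of the fit. In the mouse-1 line 636 genes (5.66%) were higher and 1353 (12%) lower than at D14, together 17.7%. In the mouse-2 line 601 (5.35%) were higher and 1033 (9.19%) lower, together 14.5%. In both lines together 415 genes (3.69%) rose and 805 (7.17%) fell, together 10.9%. The ranges of the 6 P10 and 3 D14 samples did not overlap for 7205 genes (64.1%).

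The split into higher and lower genes depended on the scaling. The median log2 difference of all genes tested was -0.25, and quantile normalization moved it to -0.03. After quantile normalization 847 genes (7.54%) were higher and 703 (6.26%) lower, together 13.8%. Another limma test, voom on recovered reads, corrected library sizes by a trimmed mean of the log ratios between libraries. With voom 1094 (9.74%) were higher and 1069 (9.52%) lower, together 19.3% of 11234 genes, and the median was -0.01. A difference is therefore best read against a median of -0.25, and the counts of calls described for gene groups are also given under these scalings where they moved by over 1.5 times.

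**Figure D1:**
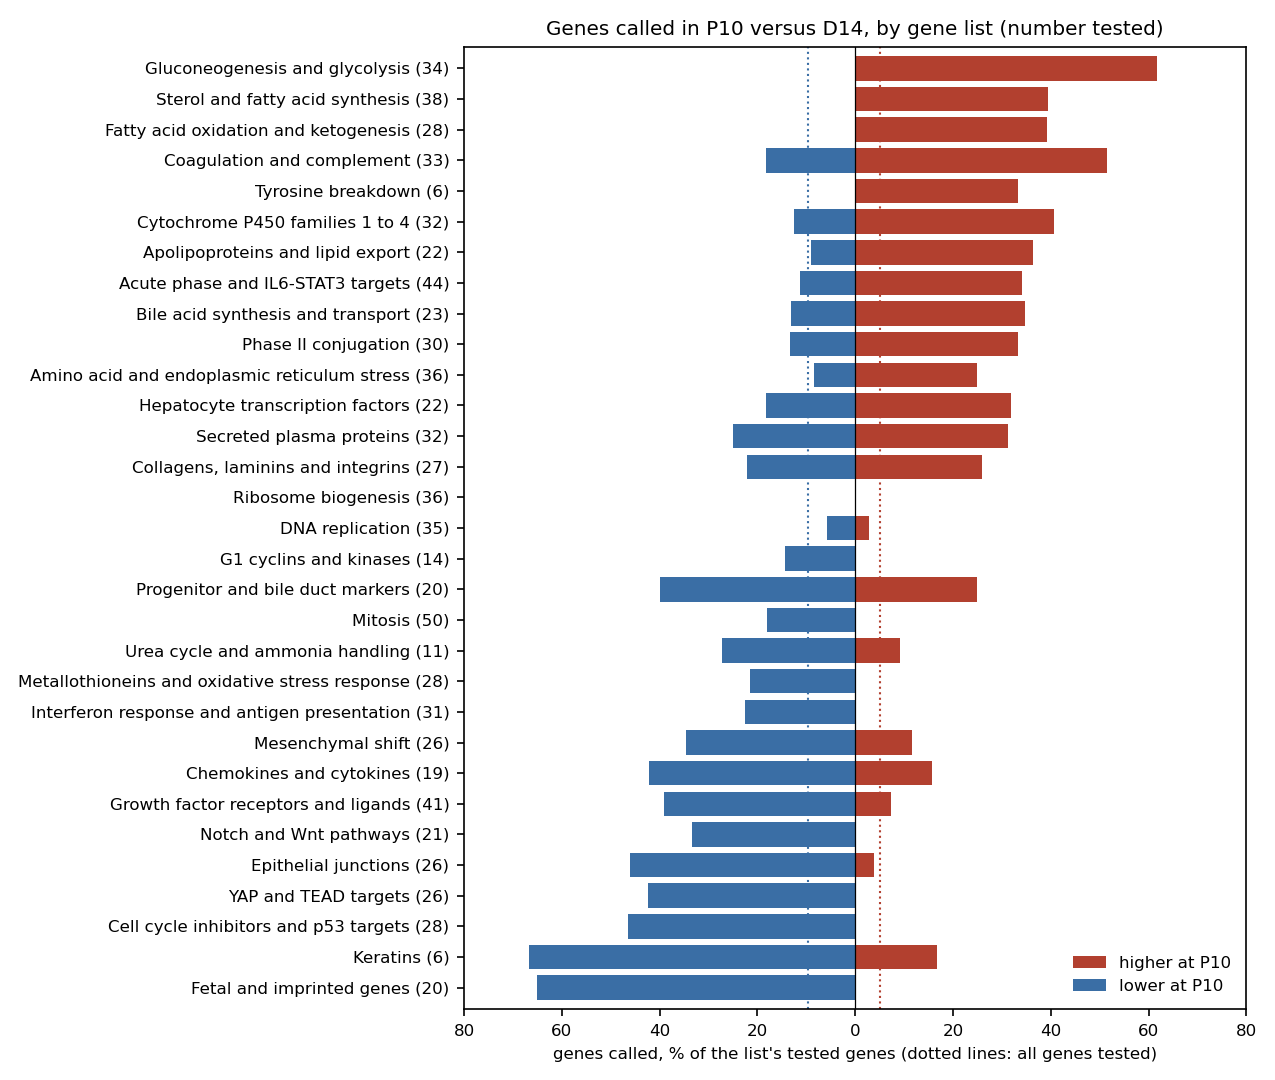
Share of each gene list's tested genes (number in brackets) that was higher (red) or lower (blue) at P10 than at D14, in percent, with the shares over all genes tested as dotted lines. In this pooled comparison glucose metabolism, lipid synthesis and fatty acid oxidation had only higher calls. The fetal genes, p53 targets and YAP and TEAD targets had only lower ones. In single lines, the glucose list had 2 lower genes in each line and the p53 list 1 higher gene in each. The YAP and TEAD list had 1 higher gene in mouse-2.

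The largest rise on the log2(FPKM + 1) scale was that of an acute-phase protein, 1 of the plasma proteins that the liver secretes in inflammation. Serum amyloid A1 (Saa1, chr7:46740497-46742980, GRCm38) was at 1384, 1271 and 1036 FPKM in mouse-1 and at 149, 162 and 149 FPKM in mouse-2, against 7.26, 6.54 and 5.97 FPKM at D14. The groups did not overlap, and the difference was 5.84 ± 0.09 on the log2 scale, a 105-fold ratio of mean FPKM (adjusted p = 4.46e-12). By that ratio genes near 0 at D14 were higher, Inmt at 819-fold and Cyp4a12b at 762-fold. Its neighbour Saa2 (chr7:46751790-46754313) was at 640.3, 1003 and 783 FPKM in mouse-1, 79.2, 82.2 and 81.9 FPKM in mouse-2 and 8.32, 7.59 and 5.64 FPKM at D14. Saa1 and Saa2 are near-identical, and reads may have been split between them. Orm2, an orosomucoid that binds drugs in plasma, rose by 4.65 ± 0.09, and Serpina3k, a secreted serine protease inhibitor, rose by 4.65 ± 0.07. Both belong to families of close copies, so the values of single members are uncertain. Serpina3k reached 1573 to 2957 FPKM at P10 from 77.3 to 89.6 FPKM at D14.

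In all, 15 of 44 tested acute-phase genes and IL6-STAT3 targets rose and 5 fell, with 13 rising and 3 falling in both lines. The summed level of the list was 33604 to 36207 FPKM in mouse-1, 21311 to 21634 FPKM in mouse-2 and 7998 to 8576 FPKM at D14. The list's median difference was 0.23. Il6ra, the IL6 receptor, was at 9.75 to 12.2 FPKM at P10 and 10.3 to 11.2 FPKM at D14. Il6st, which encodes gp130, differed by 0.24 ± 0.05, and Stat3 by 0.22 ± 0.04. Socs3, the feedback inhibitor of this pathway, was at 55.05, 57.9 and 55.4 FPKM in mouse-1, 101, 103 and 103 FPKM in mouse-2 and 124, 124 and 114 FPKM at D14, and it passed the threshold only in the mouse-1 line, where it fell by 1.09. These signalling genes were singled out after their values had been seen. Lifr, the receptor of the related cytokine LIF, fell by 1.77 on the log2 scale to 0.8602 to 1.29 FPKM.

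A2m and Mug1, members of the alpha-2-macroglobulin family of protease inhibitors, moved the other way. A2m (chr6:121635376-121679227) was at 63.4, 71.9 and 56.3 FPKM at D14 and at no more than 0.103 FPKM in any P10 sample, a difference of -5.91 ± 0.07. Mug1, on the same stretch of chromosome 6 (chr6:121838541-121889057), was at 77.4, 87.01 and 78.5 FPKM at D14 and at most 0.0299 FPKM at P10. Pzp, another member of the family on chromosome 6 (chr6:128483567-128526720), rose instead, from 463 to 527 FPKM at D14 to 2757 to 3790.3 FPKM at P10 (difference 2.696 ± 0.07). In each line A2m and Mug1 passed the test as lower and Pzp as higher.

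**Figure D2:**
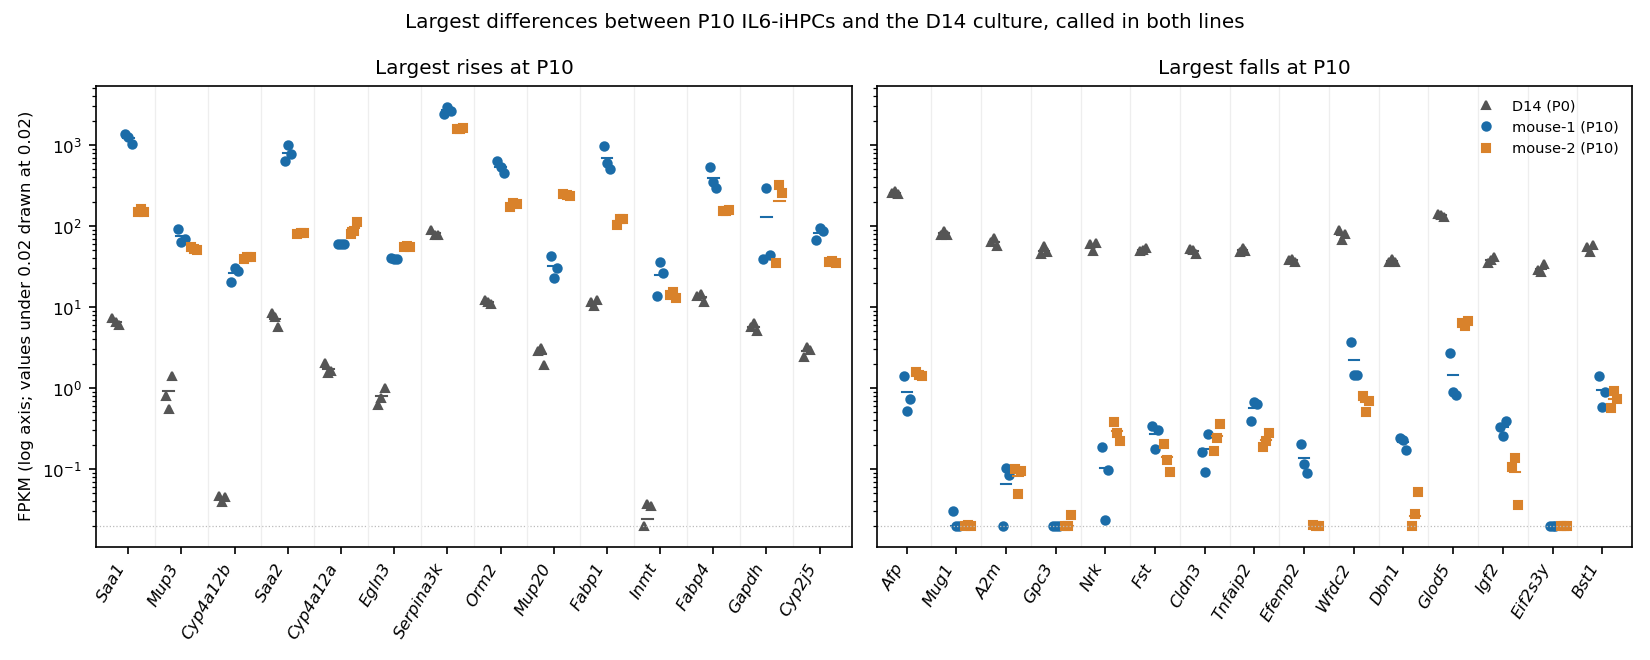
FPKM (log axis) of 14 of the 15 largest rises and the 15 largest falls called in both lines, with 1 point per sample, a short line at each group's mean and values under 0.02 drawn at 0.02. The P10 and D14 samples do not overlap for any of these genes, which were picked for their differences in the same samples. The same holds for 64.1% of all genes tested. Among the rises, the lines are called different for Saa1, Saa2, Orm2, Mup20, Fabp1, Fabp4 and Cyp2j5.

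Other secreted plasma proteins changed in both directions, with 10 of 32 higher and 8 lower at P10. Vitronectin (Vtn), an adhesive plasma protein, was at 1148 to 1227 FPKM at P10 and 211 to 255 FPKM at D14, and it rose by 2.303 ± 0.07. Fetuin-A (Ahsg), an inhibitor of mineral deposition, fell from 1542, 1841 and 1472 FPKM at D14 to 198, 384 and 322 FPKM in mouse-1 and 87.2, 115 and 93.5 FPKM in mouse-2. Igfbp1, a hepatic binding protein of insulin-like growth factors, fell from 2262, 2389 and 2042 FPKM to 302, 267 and 300.2 FPKM in mouse-1 and 115, 110.3 and 114 FPKM in mouse-2, a difference of -3.61 ± 0.06. The sign of this list's median depended on the scaling, being 0.06 here, -0.18 after quantile normalization and 0.34 with voom.

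Coagulation and complement genes were called higher more often than lower. Of 33 tested, 17 rose and 6 fell, with a median difference of 1.02. C4bp, an inhibitor of complement, was at 197 to 247 FPKM at P10 and 13.3 to 17.03 FPKM at D14 (difference 3.83 ± 0.07). The mannose-binding lectins, which start the lectin pathway of complement, were opposite. Mbl1 rose from 0.937, 1.32 and 1.42 FPKM at D14 to 40.4, 41.2 and 39.1 FPKM in mouse-1 and 15.6, 18.1 and 18.5 FPKM in mouse-2. Mbl2 fell from 5.501, 5.81 and 5.23 FPKM to at most 0.447 FPKM in any P10 sample. Coagulation factor F11 fell by 3.44, from 28.6 to 33.97 FPKM to 1.42 to 3.07 FPKM.

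Among 22 genes of apolipoproteins and lipid export, 8 rose and 2 fell. Apoc3, which slows the clearance of triglyceride-rich particles, was at 16.01, 16.3 and 16.9 FPKM in mouse-1, 56.7, 55.3 and 55.98 FPKM in mouse-2 and 2.93, 3.17 and 2.63 FPKM at D14, so it rose in both lines and was 3.41-fold higher in mouse-2 than in mouse-1. Apom, a carrier of sphingosine-1-phosphate in HDL, fell from 29.3, 25.8 and 26.3 FPKM at D14 to 0.397, 0.246 and 0.347 FPKM in mouse-1 and 1.098, 0.602 and 1.06 FPKM in mouse-2 (difference -4.14 ± 0.09). Apoa2, a major HDL protein, fell by 1.98.

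Cytochrome P450 enzymes of families 1 to 4, which oxidise drugs, steroids and fatty acids, changed in both directions. Of 32 tested, 13 rose and 4 fell. Cyp4a12a, a fatty acid hydroxylase, was at 59.8, 59.5 and 60.4 FPKM in mouse-1, 80.3, 87.1 and 113 FPKM in mouse-2 and 2.01, 1.52 and 1.63 FPKM at D14. Its close copy Cyp4a12b was at 20.2 to 41.5 FPKM at P10 and at no more than 0.0469 FPKM at D14. Cyp4a12a rose by 4.797 ± 0.10 and Cyp4a12b by 4.995 ± 0.10, and reads may have been split between them. Cyp2j5, an epoxygenase of fatty acids, rose from 2.45 to 3.17 FPKM to 66.7 to 93.5 FPKM in mouse-1 and 35.2 to 37.1 FPKM in mouse-2. The members that fell were led by Cyp2c68, at 12.6, 13.8 and 11.9 FPKM at D14 and 0.351 to 0.7403 FPKM at P10, and by Cyp2c67, both from a family of near-identical genes. The list held 21 further genes under 1 FPKM in all 9 samples, Cyp2e1 among them.

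In phase II conjugation 10 of 30 genes rose and 4 fell, and after quantile normalization 13 rose and 1 fell. The sulfotransferase Sult1a1 was at 439, 580.4 and 524 FPKM in mouse-1, 1125, 1112 and 1081 FPKM in mouse-2 and 115, 141 and 116 FPKM at D14. Gsta4, a glutathione transferase for products of lipid peroxidation, fell by 2.61. Of 23 bile acid genes 8 rose and 3 fell, but none of these falls held after quantile normalization (9 higher and 0 lower) or with voom (11 higher and 0 lower). Baat, which joins bile acids to taurine and glycine, was at 57.7 to 101 FPKM at P10 and 8.82 to 10.6 FPKM at D14. Nr1h4, the bile acid receptor FXR, was at 78.8, 94.5 and 87.2 FPKM in mouse-1, 76.8, 75.3 and 73.2 FPKM in mouse-2 and 15.6, 17.8 and 17.4 FPKM at D14, a rise of 2.19 ± 0.06. Slc51b, a subunit of the basolateral bile acid exporter and a known target of FXR, rose from 0.345 to 0.653 FPKM to 6.36 to 9.33 FPKM.

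Mup3 and Mup20, from the family of major urinary proteins, which carry pheromones, were among the largest rises. Mup3 was at 93.1, 63.4 and 68.6 FPKM in mouse-1, 55.4, 51.9 and 49.9 FPKM in mouse-2 and 0.804, 0.557 and 1.41 FPKM at D14. Mup20 was at 42.4, 22.6 and 30.7 FPKM in mouse-1, 246, 242 and 238 FPKM in mouse-2 and 2.84, 3.08 and 1.91 FPKM at D14. The Mup genes form a cluster of near-identical copies on chromosome 4, and the values of single members are uncertain. Inmt, a methyltransferase of indole amines, was at 12.9 to 35.5 FPKM at P10 and at most 0.0366 FPKM at D14.

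Among the lists described here, that of glucose metabolism had the largest share of higher genes. Of 34 tested, 21 were higher at P10 and 0 lower (4 lower at an unadjusted p under 0.05 at any fold), 19 of them in both lines, with a median difference of 1.303 against -0.25 for all genes tested. In each line on its own 2 genes of the list were called lower than at D14. The list's summed level was 5126 to 5841 FPKM in mouse-1, 5486 to 5709.6 FPKM in mouse-2 and 1968 to 2109 FPKM at D14. Slc2a2, the glucose transporter GLUT2 of hepatocytes, was at 44.1, 41.1 and 44.1 FPKM in mouse-1, 75.8, 74.7 and 72.4 FPKM in mouse-2 and 4.21, 4.86 and 4.66 FPKM at D14. The groups did not overlap, and the rise was 3.37 ± 0.05 (adjusted p = 4.04e-12). The enzymes Pgk1 and Ldha, which make ATP and lactate in glycolysis, rose by 2.18 ± 0.09 and 1.296 ± 0.06. Hexokinase 2 (Hk2), the form of dividing cells and tumors that starts glycolysis, was at 14.7, 12.8 and 12.9 FPKM in mouse-1, 10.4, 9.91 and 10.5 FPKM in mouse-2 and 4.51, 4.403 and 4.24 FPKM at D14. Gapdh had the largest difference of the list, but its repeats ranged from 39.5 to 299 FPKM in mouse-1 and from 34.97 to 320.2 FPKM in mouse-2. The gene also has many processed copies, so its value is uncertain in both lines.

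Egln3, a prolyl hydroxylase induced by low oxygen, was among the 15 largest rises. It was at 40.1, 38.9 and 39.6 FPKM in mouse-1, 55.1, 56.2 and 54.6 FPKM in mouse-2 and 0.623, 0.749 and 0.9904 FPKM at D14, a 60.2-fold ratio. Pdk1, the kinase that turns off pyruvate dehydrogenase and keeps pyruvate out of mitochondria, was at 48.97, 45.7 and 50.2 FPKM in mouse-1, 51.3, 48.5 and 48.8 FPKM in mouse-2 and 3.899, 3.7 and 4.75 FPKM at D14. The P10 lines overlapped in range for Pdk1, with a difference between them of 0.04 ± 0.08 (adjusted p = 0.714). Vegfa, the angiogenic factor, was at 42.7 to 70.1 FPKM at P10 and 22.6 to 23.5 FPKM at D14, and it passed the threshold in mouse-1 (1.46 ± 0.07) and fell short of 2-fold in mouse-2 (0.89 ± 0.07). Egln3 was named by rule, and Pdk1, Vegfa, Pgk1, Ldha and Hk2 were singled out after their values had been seen.

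**Figure D3:**
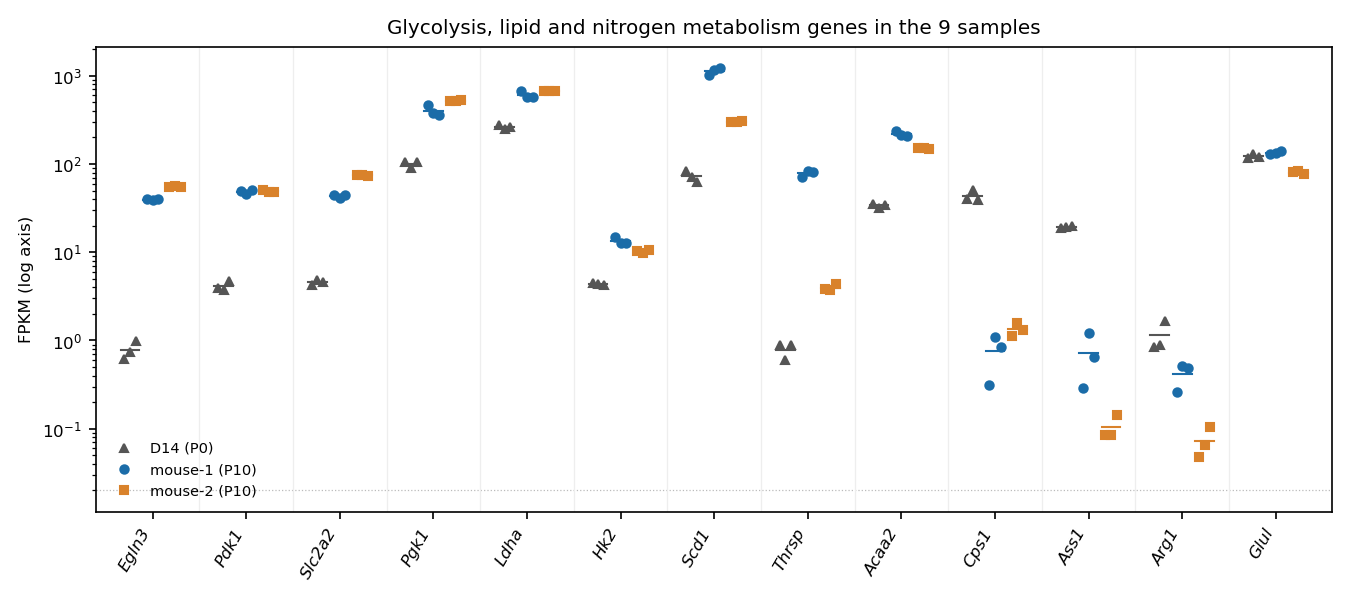
FPKM (log axis) of genes of glycolysis, lipid metabolism and nitrogen metabolism in the 9 samples, with 1 point per sample and a short line at each group's mean. Egln3, Pdk1 and Slc2a2 are higher in every P10 sample, Cps1 and Ass1 are lower in every P10 sample, and Thrsp separates the 2 lines.

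Genes of lipid synthesis and of fatty acid oxidation were called in 1 direction. Of 38 genes of sterol and fatty acid synthesis 15 were higher and 0 lower (1 lower at an unadjusted p under 0.05 at any fold), and of 28 genes of fatty acid oxidation and ketogenesis 11 were higher and 0 lower (2 lower at an unadjusted p under 0.05 at any fold). With voom 20 oxidation genes were higher. The lists' median differences were 0.75 and 0.90. Scd1, the desaturase that makes oleate, was at 1024, 1172 and 1221 FPKM in mouse-1, 298, 301 and 305 FPKM in mouse-2 and 82.4, 71.5 and 63.3 FPKM at D14. Thrsp, a regulator of lipogenesis, was at 71.8, 83.8 and 81.2 FPKM in mouse-1, 3.79, 3.77 and 4.32 FPKM in mouse-2 and 0.883, 0.595 and 0.883 FPKM at D14, so the lines differed by 19.9-fold. Acaa2, a thiolase of mitochondrial beta-oxidation, was at 148 to 239 FPKM at P10 and 31.7 to 35.7 FPKM at D14. Of the fatty acid binding proteins, Fabp1, the liver form, was at 971, 596 and 503 FPKM in mouse-1, 103, 123 and 124 FPKM in mouse-2 and 11.6, 10.3 and 12.2 FPKM at D14. Fabp4, the adipocyte and macrophage form, rose from 11.7 to 14.5 FPKM to 152 to 536 FPKM.

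Enzymes of the urea cycle were among the falls. Cps1, the first enzyme of the cycle, fell from 39.6, 50.1 and 39.1 FPKM at D14 to 0.317, 1.105 and 0.8497 FPKM in mouse-1 and 1.12, 1.57 and 1.32 FPKM in mouse-2, a difference of -4.45 ± 0.14 (adjusted p = 5.33e-10). Ass1, which makes argininosuccinate, fell from 18.8, 19.3 and 19.7 FPKM to 0.286, 1.21 and 0.644 FPKM in mouse-1 and 0.0856, 0.0851 and 0.142 FPKM in mouse-2. Arg1, the last enzyme of the cycle, reached 1 FPKM in only 1 of the 9 samples and was not tested. Among 11 genes of ammonia handling 3 fell and 1 rose, the mitochondrial aspartate carrier Slc25a13 (1.95 ± 0.05). Glutamine synthetase (Glul) was at 131, 134 and 139 FPKM in mouse-1, 80.4, 82.6 and 76.6 FPKM in mouse-2 and 117, 129 and 119.7 FPKM at D14, and it did not pass the threshold in either line. Tyrosine breakdown, the pathway used in transplant models with Fah-deficient mice, had 2 of 6 genes higher. Fah, its last enzyme, was at 83.9 to 124 FPKM at P10 and 37.96 to 43.4 FPKM at D14 (difference 1.401 ± 0.11).

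Hepatocyte transcription factors split, with 7 of 22 higher and 4 lower. The forkhead factors Foxa1 and Foxa2, which open chromatin at liver genes in development, both fell. Foxa2 was at 10.01, 10.8 and 10.03 FPKM in mouse-1, 21.9, 20.8 and 22.9 FPKM in mouse-2 and 48.6, 51.7 and 52.4 FPKM at D14. Foxa1 fell by 2.06, from 8.29 to 9.47 FPKM to 0.892 to 2.07 FPKM. Dbp, a factor of the circadian output, rose by 1.67 ± 0.13, although all its values were under 7 FPKM. Of the transcription factors on which the study centered, Elf3 rose in mouse-2 (1.36 ± 0.08) and fell short of 2-fold in mouse-1 (0.78 ± 0.08), Barx2 differed by 0.76 ± 0.05 and Mxd3 by 0.28 ± 0.11. Foxm1, the remaining factor, was called lower than at D14 in mouse-1 and was not called in mouse-2. In the pooled comparison Foxm1 was not called, but it was called lower with a pseudocount of 0.1 (-1.06). Barx2 was at 1.33 to 2.04 FPKM at P10 and 0.533 to 0.624 FPKM at D14, and it was called higher with a pseudocount of 0.1 (1.38), after quantile normalization (1.25) and with voom (1.796).

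Fetal and imprinted genes were called lower. Of 20 tested, 13 were lower at P10 and 0 higher (0 higher at an unadjusted p under 0.05 at any fold), and the same 13 were lower in both lines. Members such as Gpc3 and Igf2 reached 1 FPKM only at D14, so a fall was the only call open to them. This limits what the count and the median show. The list's median difference was -1.66, and the summed level was 155 to 163 FPKM in mouse-1, 158 to 167 FPKM in mouse-2 and 854 to 859 FPKM at D14. Alpha-fetoprotein (Afp), the albumin of the fetal liver, had the largest fall on the log2(FPKM + 1) scale. It was at 258, 268 and 251 FPKM at D14, 1.42, 0.514 and 0.742 FPKM in mouse-1 and 1.56, 1.44 and 1.4 FPKM in mouse-2, a difference of -6.93 ± 0.12 and a 219.7-fold ratio (adjusted p = 8.29e-12). By the ratio of mean FPKM, genes near 0 at P10 fell further, such as Gpc3 and Mug1. Afp (chr5:90490737-90508907) lies next to Alb (chr5:90460897-90476602) on chromosome 5, and Alb was higher in every P10 sample, as given above. Gpc3, a cell surface proteoglycan of fetal liver, was at 45.5, 56.2 and 47.8 FPKM at D14 and at most 0.0272 FPKM at P10. Igf2, the fetal growth factor expressed from the paternal allele, was at 34.7, 37.7 and 41.9 FPKM at D14, 0.332, 0.257 and 0.395 FPKM in mouse-1 and 0.105, 0.135 and 0.0355 FPKM in mouse-2.

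Progenitor and bile duct markers did not move together, with 5 of 20 higher and 8 lower. Osteopontin (Spp1) and lipocalin-2 (Lcn2) were among the most abundant transcripts of the cells. Lcn2, an iron-scavenging acute-phase protein, was at 7979, 9442 and 8407 FPKM in mouse-1, 4451, 4438 and 4399 FPKM in mouse-2 and 1513, 1664 and 1605 FPKM at D14. Spp1 was at 7358 to 10889 FPKM at P10 and 3936 to 4371 FPKM at D14, and its call was lost after quantile normalization (0.63). Sox4, a factor of bile duct development, fell from 166, 164 and 158 FPKM at D14 to 31.3, 22.5 and 24.3 FPKM in mouse-1 and 44.5, 41.2 and 43.3 FPKM in mouse-2. Cd44, a hyaluronan receptor, fell by 2.08 and Pkhd1, a protein of the cilia of bile duct cells, rose by 1.75 ± 0.05. Epcam, a surface marker of bile duct cells, was under 1 FPKM in all 9 samples.

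The keratins separated further. Krt20 rose from 15.97 to 19.96 FPKM to 116 to 146 FPKM, and the bile duct keratins Krt7 and Krt23 fell by 2.56 and 1.98. Krt19 was at 9.94, 6.07 and 6.94 FPKM in mouse-1, 61.5, 60.4 and 61.2 FPKM in mouse-2 and 54.1, 46.6 and 45.3 FPKM at D14, so it passed the test as lower in mouse-1 and not in mouse-2. The difference between the lines, which does not use the D14 samples, was 2.87 ± 0.13 (adjusted p = 1.2e-07).

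Epithelial junction genes fell in 12 of 26 cases and rose in 1 (2 after quantile normalization, 3 with voom), with a median difference of -0.92. Cldn3, a claudin of tight junctions, fell from 51.8, 50.2 and 45.04 FPKM at D14 to 0.161, 0.0927 and 0.272 FPKM in mouse-1 and 0.166, 0.242 and 0.355 FPKM in mouse-2 (difference -5.36 ± 0.07). St14, the membrane protease matriptase, fell by 3.04. The gene that rose was Gjb2, connexin 26 of hepatocyte gap junctions, at 53.8 to 110.4 FPKM at P10 and 23.4 to 26.4 FPKM at D14.

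Growth factor genes and targets of their signalling were called lower more often than higher. Of 41 tested, 16 fell and 3 rose, 11 and 0 of them in both lines, and the count of falls was 11 after quantile normalization. Follistatin (Fst), the secreted antagonist of activin, was at 48.9, 51.1 and 53.8 FPKM at D14, 0.336, 0.176 and 0.302 FPKM in mouse-1 and 0.203, 0.131 and 0.0929 FPKM in mouse-2. The FGF receptor Fgfr1 fell from 15.96 to 17.5 FPKM to at most 0.406 FPKM in any P10 sample. Dusp6, a phosphatase that feeds back on ERK, was at 12.9, 10.6 and 11.7 FPKM in mouse-1, 8.44, 9.08 and 8.98 FPKM in mouse-2 and 59.9, 55.2 and 58.5 FPKM at D14 (difference -2.397 ± 0.06). Spry4, another feedback inhibitor of the same pathway, fell short of 2-fold (-0.76 ± 0.07). Dusp6 and Spry4 were singled out after their values had been seen.

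YAP and TEAD targets had 11 of 26 genes lower and 0 higher (0 higher at an unadjusted p under 0.05 at any fold), and genes of the Notch and Wnt pathways 7 of 21 lower and 0 higher (5 higher at an unadjusted p under 0.05 at any fold). The YAP list was led by Igfbp3, a binding protein of insulin-like growth factors, at 38.4, 47.1 and 48.5 FPKM in mouse-1, 14.8, 16.9 and 14.3 FPKM in mouse-2 and 227, 250.2 and 209 FPKM at D14. Fjx1, a secreted protein of that list, fell by 2.58. Hes1, a direct target of Notch, fell from 31.6 to 34.8 FPKM to 6.07 to 12.8 FPKM, and Tcf7l1, a Wnt pathway transcription factor, by 1.91. With voom 1 gene of the Notch and Wnt list was higher. In single lines 1 gene of the YAP and TEAD list was called higher in mouse-2, and 1 of the Notch and Wnt list in mouse-1.

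Several further genes with the largest falls belong to no list. Wfdc2, a secreted protein of epithelia, was at 88.6, 67.7 and 78.7 FPKM at D14, 3.74, 1.43 and 1.45 FPKM in mouse-1 and 0.787, 0.508 and 0.696 FPKM in mouse-2. Nrk, a protein kinase expressed in embryo and placenta, fell from 49.5 to 62.3 FPKM to at most 0.381 FPKM. Tnfaip2 fell by 5.20, Efemp2, a protein of elastic fibers, by 5.17, and the actin-binding protein Dbn1 by 5.08. Glod5, of the glyoxalase family, fell from 131 to 142 FPKM to 0.829 to 6.77 FPKM. The ectoenzyme Bst1 fell from 47.8 to 58.3 FPKM to 0.558 to 1.399 FPKM. For all of these the lowest D14 sample was above the highest P10 sample. They were picked for large falls in the same samples, so this adds no support. Ranges did not overlap for 64.1% of all genes tested.

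Cell cycle inhibitors and targets of p53, the tumor suppressor that arrests damaged cells, fell in 13 of 28 cases and rose in 0 (5 higher at an unadjusted p under 0.05 at any fold), and 10 fell in both lines. After quantile normalization and with voom 1 gene of the list was higher. Against D14, each line on its own also had 1 gene of the list called higher. Cdkn2b, the CDK inhibitor p15, was at 15.4, 13.8 and 13.5 FPKM in mouse-1, 11.6, 10.5 and 10.5 FPKM in mouse-2 and 71.7, 76.6 and 66.2 FPKM at D14. The p53 target Ccng1 fell by 1.78, from 226 to 254 FPKM to 61.4 to 80.6 FPKM. Cdkn1a, the CDK inhibitor p21, was at 56.96, 67.1 and 67.9 FPKM in mouse-1, 49.9, 49.3 and 46.6 FPKM in mouse-2 and 148, 152 and 155 FPKM at D14. Trp53 itself fell in the pooled comparison (-1.04 ± 0.04) and in mouse-1, but its call was lost after quantile normalization (-0.92) and with voom (-0.79). Cdkn2a, which encodes p16 and p19, was at 2.86 to 5.95 FPKM at P10 and 6.104 to 6.67 FPKM at D14 and did not pass. Cdkn1a, Trp53 and Cdkn2a were singled out after their values had been seen.

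Of 14 tested G1 cyclins and kinases 0 rose and 2 fell, Cdk4 and Cdk6, neither of them in both lines. After quantile normalization 1 was lower and 0 higher, and with voom 0 lower and 1 higher. In mouse-2 on its own 1 gene of this list was called higher than at D14. Cyclin D1 (Ccnd1), which drives entry into the cycle, was at 65.4 to 92.9 FPKM at P10 and 53.5 to 69.5 FPKM at D14. In DNA replication 1 of 35 genes rose and 2 fell, against 1 and 0 after quantile normalization and 2 and 2 with voom. The one that rose was Rrm2, the regulated subunit of ribonucleotide reductase, at 34.5, 31.2 and 31.8 FPKM in mouse-1, 45.9, 50.6 and 44.8 FPKM in mouse-2 and 13.6, 10.6 and 12.8 FPKM at D14. In mouse-1 6 replication genes were lower (0 after quantile normalization, 5 with voom) and in mouse-2 0. The difference of mouse-2 from mouse-1 was above 0 for 29 of 35 replication genes and 13 of 14 G1 genes. This held for 6510 of all 11235 genes tested. In each of these 2 lists 2 genes were called higher in mouse-2 than in mouse-1. Of 36 ribosome biogenesis genes limma called 0 at 2-fold, on the FPKM scale, after quantile normalization and with voom, while 29 were lower and 2 higher at an unadjusted p under 0.05 at any fold. Their median difference was -0.35, against -0.25 for all genes tested.

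Mitosis genes distinguished the 2 lines. In the pooled comparison 9 of 50 were lower than at D14, but this count was 1 after quantile normalization and 20 with voom. In mouse-1 30 of 50 were lower and in mouse-2 limma called 0 in either direction (8 higher and 13 lower at an unadjusted p under 0.05 at any fold). The number lower in mouse-1 was 16 after quantile normalization and 37 with voom. In mouse-2 1 gene was higher after quantile normalization and 3 with voom, with 0 lower under either scaling. In the direct comparison of the lines, which does not use D14, 499 genes (4.44%) differed, of which 275 (2.45%) were higher and 224 (1.99%) lower in mouse-2. Among the mitosis genes 27 of 50 were higher in mouse-2 and 0 lower, the median difference was 1.04 against 0.06 for all genes tested, and 49 of 50 lay above 0. The count was 18 after quantile normalization, where 203 of all genes (1.81%) were higher and 237 (2.11%) lower in mouse-2, together 3.92%. With voom it was 38, where 531 (4.73%) were higher and 512 (4.56%) lower, together 9.28%.

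Mki67, the gene of the Ki67 antigen, was at 1.11, 0.668 and 0.974 FPKM in mouse-1, 7.54, 9.41 and 8.38 FPKM in mouse-2 and 8.21, 6.98 and 7.801 FPKM at D14. The mouse-2 and D14 samples overlapped in range, and all mouse-1 samples were below both. The lines differed by 2.302 ± 0.10 (adjusted p = 9.4e-08). The pooled difference from D14 was -1.03 ± 0.09, and that call was lost without replicate 2 of mouse-1 (-0.98), replicate 1 of mouse-2 (-0.99) or replicate 1 of D14 (-0.98). Ube2c, a ubiquitin-conjugating enzyme of mitotic exit, was at 1.09, 1.26 and 0.677 FPKM in mouse-1, 7.67, 9.66 and 8.58 FPKM in mouse-2 and 12.7, 11.05 and 11.6 FPKM at D14. Ccnb2, cyclin B2, was at 1.15, 0.405 and 0.632 FPKM in mouse-1, 5.12, 6.93 and 6.26 FPKM in mouse-2 and 3.52, 3.04 and 3.299 FPKM at D14. Foxm1, the transcription factor of mitotic genes, differed between the lines by 1.36 ± 0.08 and Top2a, topoisomerase II, by 1.35 ± 0.13. The summed FPKM of the list was 57.8 to 79.1 in mouse-1, 177 to 211 in mouse-2 and 183 to 213 at D14. In bulk samples, fewer cells in mitosis and less mitotic RNA per cell cannot be told apart. Ube2c, Ccnb2 and Top2a were singled out after their values had been seen.

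Promoters of mitotic genes are known for a shared pair of elements, the CHR (TTTGAA), bound by the DREAM and MMB complexes, and CCAAT boxes, bound by NF-Y. The 250 bases before the first listed start of Mki67 (chr7:135716380-135716629, minus strand), Ube2c (chr2:164769679-164769928, plus strand) and Ccnb2 (chr9:70421555-70421804, minus strand) are shown as examples of mitosis genes with large differences between the lines. A promoter sequence was at hand for 21 of the 27 mitosis genes higher in mouse-2. Not every gene was considered, so these 3 need not have the largest differences of the list. The sequences are from RefSeq on GRCm38.p6, 5′ to 3′ on the strand of the gene, and capitals mark both motifs on either strand.
Mki67: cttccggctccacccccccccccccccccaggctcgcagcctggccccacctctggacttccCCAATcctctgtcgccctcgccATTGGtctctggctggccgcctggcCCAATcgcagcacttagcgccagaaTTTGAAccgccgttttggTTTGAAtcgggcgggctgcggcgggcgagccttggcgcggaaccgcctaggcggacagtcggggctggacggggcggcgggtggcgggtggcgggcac
Ube2c: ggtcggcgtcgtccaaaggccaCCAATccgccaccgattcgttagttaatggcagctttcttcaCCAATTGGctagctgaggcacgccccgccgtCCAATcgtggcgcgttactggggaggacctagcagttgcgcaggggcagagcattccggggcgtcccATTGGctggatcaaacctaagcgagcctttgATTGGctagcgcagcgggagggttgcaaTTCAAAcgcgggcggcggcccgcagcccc
Ccnb2: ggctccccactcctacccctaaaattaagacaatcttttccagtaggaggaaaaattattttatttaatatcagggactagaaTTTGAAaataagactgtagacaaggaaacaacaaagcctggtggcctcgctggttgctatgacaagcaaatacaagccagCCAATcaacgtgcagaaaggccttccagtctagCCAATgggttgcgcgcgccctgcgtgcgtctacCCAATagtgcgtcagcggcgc
TTTGAA was found in 13 of 41 mitosis promoters with a sequence (31.7%) and in 8 of the 21 (38.1%) whose genes were higher in mouse-2, against 16.3% of all 27025 promoters and 10.1% of the 8757 promoters of genes tested. CCAAT was found in 30 of 41 (73.2%) and 17 of 21 (81%), against 34.5% and 37%. A match of letters is a description and does not show that a factor binds there.

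**Figure D4:**
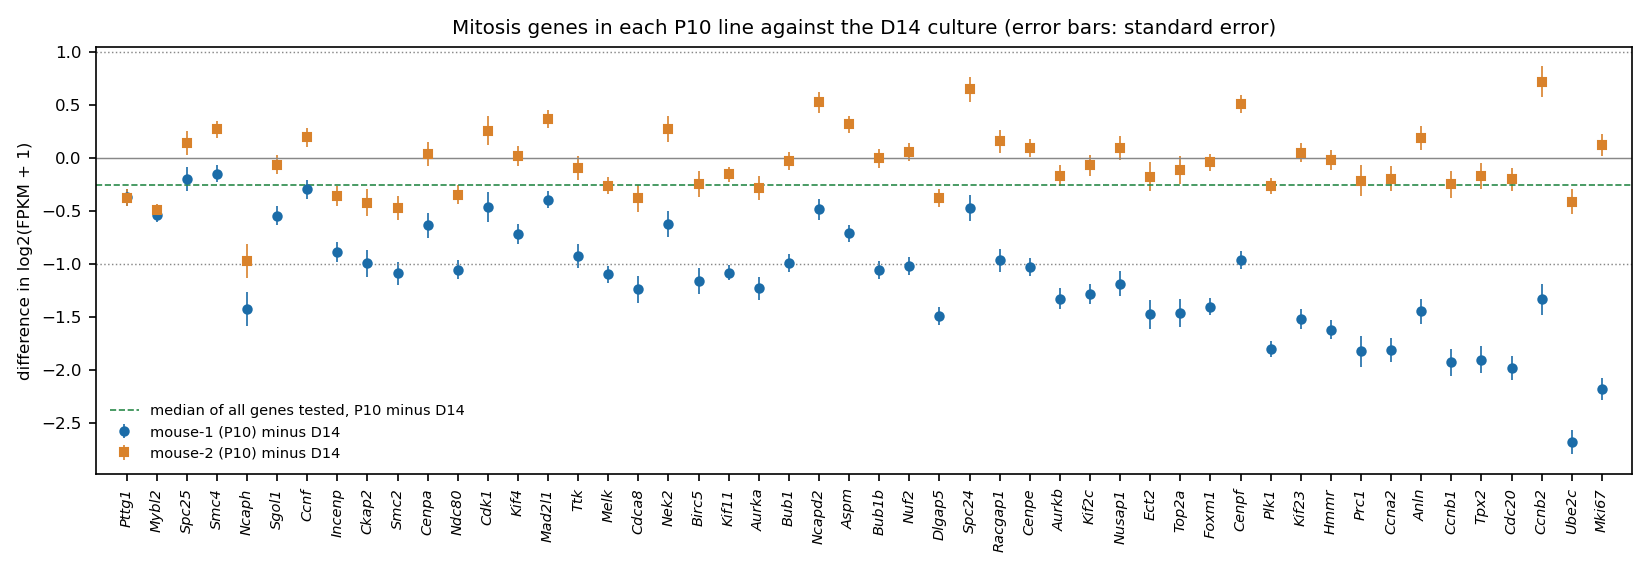
Difference in log2(FPKM + 1) from D14 of the 50 tested mitosis genes in each P10 line, ordered by the gap between the lines, with standard errors. Mouse-1 (blue) lies below mouse-2 (orange) for 49 of the 50, and the dashed green line marks the median of all genes tested.

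Of the acute-phase genes 10 of 44 were lower in mouse-2 than in mouse-1 and 0 higher. Saa3, an amyloid A of injured tissue, was at 551, 202 and 268 FPKM in mouse-1, 13.2, 12.8 and 15.1 FPKM in mouse-2 and 21.5, 18.4 and 20.8 FPKM at D14, so mouse-1 alone was above D14. Osgin1, a target of the oxidative stress factor NRF2, was at 210.2, 206 and 210.2 FPKM in mouse-1, 19.04, 19.5 and 18.02 FPKM in mouse-2 and 285, 289 and 276 FPKM at D14. Vnn3, a pantetheinase, was 20.6-fold higher in mouse-1. Of the P450 enzymes, 9 of 32 were lower in mouse-2 and 0 higher.

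Higher in mouse-2 were Wnt16, a secreted Wnt ligand, the gut hormone uroguanylin (Guca2b) and collagen VI (Col6a1). Wnt16 was at 0.993, 1.08 and 1.19 FPKM in mouse-1, 22.2, 24.1 and 20.9 FPKM in mouse-2 and 9.03, 11.7 and 8.5 FPKM at D14. Col6a1 was at 2.96, 2.998 and 2.75 FPKM in mouse-1, 30.1, 29.1 and 27.7 FPKM in mouse-2 and 1.93, 1.44 and 1.92 FPKM at D14. Guca2b was 15.2-fold higher in mouse-2 than in mouse-1, while mouse-1 overlapped D14 in range.

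Both lines were compared with the same D14 samples, so their differences from D14 are not independent. In these comparisons 7 genes (0.0623%) were called in opposite directions in the 2 lines. Wnt16, AA986860, the trypsin inhibitor Spink1 and the receptor Tnfrsf18 fell in mouse-1 and rose in mouse-2. Gckr, the regulator of glucokinase, Cyp2d22 and the ADP-ribosyltransferase Tiparp rose in mouse-1 and fell in mouse-2. Gckr was at 21.1, 25.4 and 22.9 FPKM in mouse-1, 1.57, 1.53 and 1.35 FPKM in mouse-2 and 6.51, 8.03 and 6.95 FPKM at D14. For AA986860, Spink1, Tnfrsf18 and Tiparp the call in 1 line was lost after quantile normalization. With voom the calls of AA986860 in mouse-1 (-0.98) and of Tiparp in mouse-2 (-0.9992) were lost too. Spink1 in mouse-1 also lost its call without replicate 2 (-0.85) or replicate 3 (-0.94) of that line or replicate 1 of D14 (-0.88), and Tnfrsf18 without replicate 1 of mouse-1 (-0.76).

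Genes of matrix and motility changed in both directions. Of 27 collagens, laminins and integrins, 7 rose and 6 fell. Col12a1, a fibril-associated collagen, was at 50.9, 32.98 and 39.5 FPKM in mouse-1, 78.4, 73.6 and 79.5 FPKM in mouse-2 and 9.83, 9.86 and 11.05 FPKM at D14. Col16a1 rose by 2.64 ± 0.14, whereas the laminin-binding integrins Itga3 and Itgb4 fell by 2.04 and 2.30. In the list of the mesenchymal shift 3 of 26 rose and 9 fell. Twist1, a transcription factor of that shift, rose from 0.4203 to 0.723 FPKM to 3.09 to 5.91 FPKM in mouse-1 and 11.7 to 12.7 FPKM in mouse-2. Lox, which cross-links collagen, fell by 1.94.

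Of 31 interferon response and antigen presentation genes 7 fell and 0 rose (4 higher at an unadjusted p under 0.05 at any fold), led by Iigp1, an interferon-induced GTPase, at 55.7 to 71.3 FPKM at P10 and 249.7 to 260.5 FPKM at D14, and Usp18 (-1.78 ± 0.08). Of these falls 5 were called in both lines, and after quantile normalization 4 genes of the list were lower. Of 19 chemokines and cytokines 8 fell and 3 rose. The monocyte attractant Ccl2 fell from 50.6, 47.4 and 47.5 FPKM at D14 to 6.01, 1.79 and 2.99 FPKM in mouse-1 and 3.57, 2.72 and 2.97 FPKM in mouse-2, Cxcl16 fell by 2.94, and Mif rose by 1.41 ± 0.12. In oxidative stress genes 6 of 28 fell and 0 rose (8 higher at an unadjusted p under 0.05 at any fold). Nfe2l2, which encodes NRF2, was at 51.5, 48.9 and 52.01 FPKM in mouse-1, 87.9, 92.2 and 85 FPKM in mouse-2 and 176, 185 and 189 FPKM at D14, and G6pdx, the entry enzyme of the pentose phosphate pathway, fell by 1.59. With voom 3 genes of this list were higher, and in single lines 1 was called higher in mouse-1 and 2 in mouse-2. Of 36 genes of amino acid supply and endoplasmic reticulum stress 9 rose and 3 fell. Shmt2, the mitochondrial serine enzyme of folate metabolism, rose by 1.74 ± 0.06 and Vldlr, a lipoprotein receptor, by 2.43 ± 0.05, whereas Ddit3, the stress factor CHOP, fell by 1.68 and the endoplasmic reticulum protein Sdf2l1 by 1.41.

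Most markers of other liver cells were under 1 FPKM on both sides, with exceptions named below. Of 29 Kupffer cell and macrophage markers 24 were under 1 FPKM in all 9 samples and 4 at 0 in all, Clec4f among them. The list's sum was 107 to 114 FPKM in mouse-1, 86.6 to 90.6 FPKM in mouse-2 and 100.2 to 105 FPKM at D14, most of it Cd14, at 76.8 to 109 FPKM at P10 and 75.7 to 80 FPKM at D14. Mpeg1 fell by 1.92. Csf1r, the macrophage growth factor receptor, singled out after its values had been seen, was at 0.1601, 0.0205 and 0.131 FPKM in mouse-1, 4.31, 3.89 and 4.14 FPKM in mouse-2 and 0.818, 0.725 and 0.864 FPKM at D14.

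Of 27 endothelial markers 24 were under 1 FPKM in all 9 samples, and the sums were 23.7 to 26.4, 25.6 to 26.6 and 29.8 to 31.2 FPKM, most of it Flt4 at 18.98 to 23.6 FPKM at P10 and 23.5 to 24.6 FPKM at D14. Of 25 stellate cell and fibroblast markers 22 were under 1 FPKM in all 9 samples. The 3 tested all fell, but the D14 samples alone could meet the filter. Bgn entered that way, at 1.04 to 2.66 FPKM at D14 and at most 0.239 FPKM at P10. Its call was lost after quantile normalization (-0.77) and without replicate 3 of D14 (-0.996). The list's sum was 12.7 to 21.3 FPKM in mouse-1, 10.4 to 12.5 FPKM in mouse-2 and 56.02 to 60.4 FPKM at D14. It was carried by Ecm1 (28.5 to 30.5 FPKM at D14) and decorin (Dcn, 24.3 to 25.3 FPKM at D14), with the defining collagen Col1a1 at no more than 0.404 FPKM in any sample. All 23 lymphocyte and other blood cell markers were under 1 FPKM in all 9 samples. Of 11 mesothelial markers 3 were tested, and the list's sum was 161 to 169.6 FPKM in mouse-1, 420.1 to 434 FPKM in mouse-2 and 209 to 241 FPKM at D14. Podxl, also a protein of epithelial surfaces, was at 84.8 to 109 FPKM at P10 and 119 to 129 FPKM at D14. Msln, mesothelin, was at 75.6, 69.6 and 71.1 FPKM in mouse-1, 319, 325 and 318 FPKM in mouse-2 and 110.4, 86.3 and 101 FPKM at D14, while the defining marker Wt1 was at no more than 0.0242 FPKM. The part of these cells in the falls of matrix and chemokine genes was not tested.

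Y-linked genes separated the D14 culture from both lines. Eif2s3y (chrY:1010543-1028847), a translation factor, was at 28.3, 27.2 and 33.6 FPKM at D14 and at 0 in all 6 P10 samples. Ddx3y (chrY:1260771-1286629), an RNA helicase, was at 12.9, 11.7 and 13.1 FPKM at D14, Kdm5d, a histone demethylase, at 8.75, 8.53 and 9.205 FPKM and Uty at 5.85, 6.01 and 6.37 FPKM, and these too were at 0 in all P10 samples. With a floor of 3 reads per library, D14 was at least 840-fold higher for Eif2s3y, at least 964-fold for Ddx3y, at least 227-fold for Kdm5d and at least 507-fold for Uty. Cyp4a12a, Cyp4a12b and Mup20, which in mouse liver are expressed mainly in males, were higher in the P10 lines without Y-linked reads, as given above. They were named as large rises, and no list of genes that differ by sex was compared. The sex of the donors was not tested. The labels do not tie the D14 culture to the mouse of either line, so effects of passage and of the donor cannot be told apart for any gene of the comparison.

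**Figure D5:**
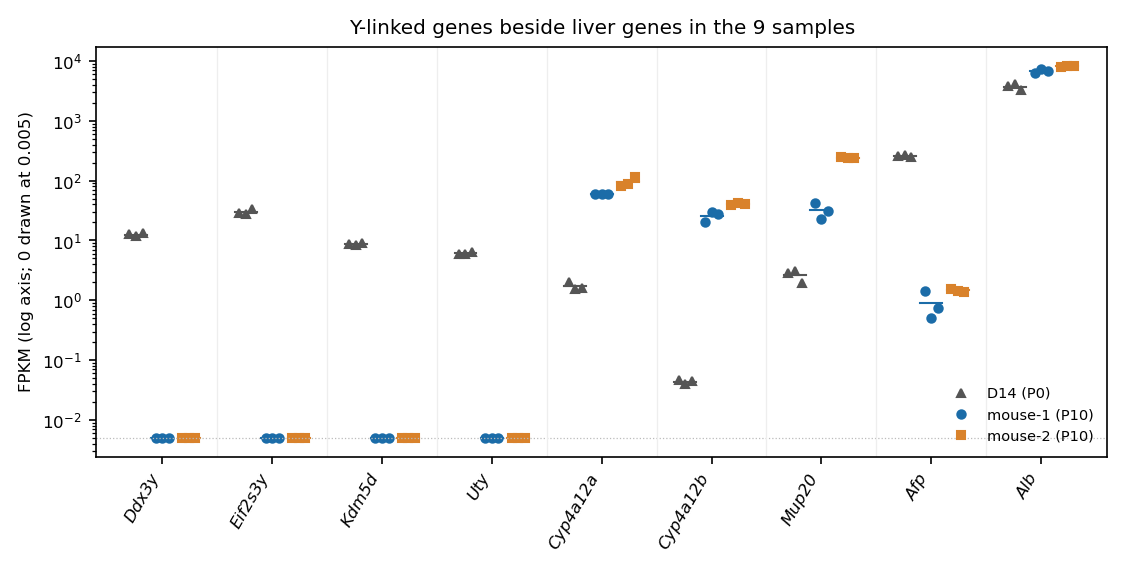
FPKM (log axis) of the 4 Y-linked genes and 5 liver genes in the 9 samples, with 1 point per sample and a short line at each group's mean. The Y-linked genes are at 0 in the 6 P10 samples (drawn at 0.005) and between 5.85 and 33.6 FPKM in the 3 D14 samples, while Cyp4a12a, Cyp4a12b, Mup20 and Alb are higher at P10.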

How the data were processed

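Bulk RNA-seq of 3 samples each of IL6-iHPCs at day 14 of the first culture and of the mouse-1 and mouse-2 lines at passage 10 was analysed. The deposited values are FPKM per gene symbol. The authors made them by paired-end sequencing of 150 nt reads, and the submitters' processing notes name TopHat 1.4.1, Cufflinks 1.3.0 and mm10. The scale was not stated in the table itself and was checked from the values, whose low genes step in whole reads (17789 of 17790 genes within 0.03 reads).

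Of 19355 symbols, 2 listed more than once were averaged, and 27 had been turned into dates. The 11235 genes that reached 1 FPKM in 3 or more of the 9 samples were fitted on log2(FPKM + 1) with limma 3.58.1 (R 4.3.3), using group means as coefficients, empirical Bayes moderation with trend and Benjamini-Hochberg adjustment over all genes tested. Contrasts were the mean of the lines against D14, each line against D14, and mouse-2 against mouse-1. A gene was called at an adjusted p under 0.05 and at least 2-fold. The procedure was tested on simulated data.

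The genes named by rule (138) were the 15 largest rises and falls called in both lines, up to 2 per list and direction, the 5 largest differences between the lines in each direction, the 2 most abundant markers of each other cell type, genes called in opposite directions, and fixed markers of hepatocytes, progenitors, cycling cells and the Y chromosome. A further 16 were added after their values were seen, as were other list members named in the text. The members and lists were chosen with earlier results of these data known. The fit was repeated with quantile normalization, with 0.1 as pseudocount, without a filter, with a 5 FPKM filter, voom on recovered reads, other fold thresholds, all 11 groups in the fit, a replicate block and leaving out each replicate. Deviations from the group mean correlated at -0.12 to 0.252 (median 0.0787) between same-numbered samples of different groups. Between other samples the correlations were -0.221 to 0.0945 (median -0.0067). These ranges overlap, so whether the numbers pair the samples was not settled, and the main fit used no pairing. Gene positions are from GENCODE M21 on GRCm38, and promoters from RefSeq on GRCm38.p6. Tables and figures used Python 3.11.15, pandas 2.3.3 and matplotlib 3.10.9. Xist, Mx1, H19 and Meg3 were not analysed here, and some genes that the rule picks are not reported here.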

Additional observations from a re-analysis of the deposited data

Results flagged for a closer look

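The 2 lines at passage 10 differed in 499 genes, by the direct limma contrast of mouse-2 against mouse-1 with Benjamini-Hochberg adjustment, which is the difference between their changes from D14. Among the genes named in the report, 37 differed in this contrast, 17 higher and 20 lower in mouse-2. The values that follow are differences in log2(FPKM + 1), mouse-2 minus mouse-1.

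Higher in mouse-2 were Mki67 by 2.302, Foxm1 by 1.36, Krt19 by 2.87 and Msln by 2.14, of which Mki67 marks cycling cells, Foxm1 drives mitotic genes, Krt19 is a bile duct keratin and Msln is mesothelin. Liver genes higher in mouse-2 were Mup20 by 2.93, Apoc3 by 1.71, Sult1a1 by 1.11 and Foxa2 by 1.02. Secreted, matrix and other genes higher in mouse-2 were Wnt16 by 3.48, Guca2b by 3.44, Col6a1 by 2.94, AA986860 by 2.51, Spink1 by 2.33, Tnfrsf18 by 2.23, Glod5 by 1.64, Ecm1 by 1.62 and Twist1 by 1.403.

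Several plasma protein genes were lower in mouse-2. Saa3 differed by -4.41, and the others were Saa2 by -3.28, Saa1 by -2.99, Ahsg by -1.56, Orm2 by -1.53, Igfbp1 by -1.35 and Mbl1 by -1.17. Genes of lipid handling lower in mouse-2 were Thrsp by -4.01, Fabp1 by -2.501, Scd1 by -1.91 and Fabp4 by -1.31. Enzymes and regulators lower in mouse-2 were Vnn3 by -3.55, Osgin1 by -3.401, Gckr by -3.28, Cyp2d22 by -2.69, Tiparp by -2.15 and Cyp2j5 by -1.16. The matrix and signalling genes Dcn, Igfbp3 and Egfl7 differed by -1.59, -1.48 and -1.07. Each line is 1 mouse, so a difference between lines cannot be told apart from a difference between animals or between cultures.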

How the results depend on the processing

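With a pseudocount of 0.1 the counts of called genes were 2244 for the pooled comparison, 2657 for mouse-1, 2149 for mouse-2, 1604 in both lines and 924 between the lines. With voom on recovered reads 1043 genes differed between the lines. With no fold threshold the counts were 8906 pooled, 8849 for mouse-1, 8411 for mouse-2, 6846 in both lines and 6053 between the lines. At 1.5-fold they were 3822, 4391, 3638, 2716 and 1583, and at 4-fold 394, 450, 412, 298 and 56, in the same order. A filter at 5 FPKM gave 1228 pooled calls.

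Leaving out each replicate gave 1630 to 1678 genes pooled, 1970 to 2063 for mouse-1, 1630 to 1645 for mouse-2, 1216 to 1230 in both lines and 488 to 531 between the lines. With the replicate number as a block the counts were 1654, 1989, 1634, 1220 and 500, and the block changed no count by over 1.5 times.

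For the named genes, 2551 of 2596 values kept their direction and side of the threshold, 25 were weaker, 14 stronger and 6 reversed. The reversed values all belong to genes that were not called. Hnf4a was 0.25 with voom and lay between -0.0403 and 0.0017 when each replicate was left out, above 0 without replicate 1 of mouse-1 or replicate 2 of D14 (0.0015). Glul was 0.047 with voom, and Flt4 was 0.051 after quantile normalization and 0.12 with voom. Beside AA986860, Spink1, Tnfrsf18 and Tiparp, calls lost after quantile normalization were Mki67 (-0.77), Krt19 (-0.94), Gstt3 (-0.88), Bgn (-0.77), Upk1b (-0.94), Trp53 (-0.92), Spp1 (0.63) and Abcc4 (-0.9995), and Barx2 gained one (1.25). Barx2 also gained one with voom (1.796) and with a pseudocount of 0.1 (1.38). With that pseudocount Foxm1 (-1.06), Egfl7 (-1.32), Spry4 (-1.18) and Top2a (-1.04) gained pooled calls as lower. Under voom the pooled calls of Krt19 (-0.90), Abcc4 (-0.97) and Trp53 (-0.79) were lost. The calls of AA986860 in mouse-1 (-0.98) and Tiparp in mouse-2 (-0.9992) were lost as well. Alb (1.28), Cyp1a2 (1.13) and Egfl7 (-1.18) gained pooled calls under voom. The causes were not tested.

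The 3 samples of a group are technical repeats and the labels tie the D14 samples to neither mouse, so passage, donor and culture cannot be told apart. Replicate 1 of mouse-1 stood apart from its repeats. How reads of near-identical genes were shared out is not given in the sources used here. Differences of low genes are compressed by the pseudocount.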
